A study of Homo sapiens with 8 samples.

Results

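The genes described here encode parts of the extracellular matrix and the receptors that bind it. They were chosen by a rule on gene symbols, set with earlier results of these data known: collagen chains named COL, a number, A and a number, the laminin chains, the ADAMTS and ADAMTS-like proteins, the integrin subunits named ITGA or ITGB and a number, and FN1. GENCODE 29 annotates 100 protein-coding genes of this kind, and 9 of them were among the 1221 genes listed in at least 1 of the 3 tables that the authors deposited. Each table compares K-562 cells in which TASOR or TASOR2 was altered with the same control cells. K-562 is a human leukaemia cell line that the labels call lymphoblasts, and total RNA depleted of ribosomal RNA was sequenced from 8 libraries in 4 groups of 2.

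The first altered group was a TASOR knockout made by CRISPR/Cas9. The second was the TASOR knockout carrying a FLAG-tagged TASOR transgene, and the third was parental wild-type cells carrying a FLAG-tagged TASOR2 transgene. The controls were parental wild-type cells with a negative guide RNA, and the labels name no guide for the FLAG-TASOR2 cells, so guide and transgene cannot be told apart there. The labels' protocols describe lentivirus with an empty puromycin vector or a transgene, and knockout lines grown from single sorted cells. The sources used here do not say whether the 2 libraries of a group are separate clones, so the deposited p-values reflect only how far these libraries vary, which may be technical or that of a clone. The tables hold no value per library, and depth per library is unknown from them.

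TASOR is the scaffold of HUSH, the human silencing hub, which keeps LINE-1 elements and some genes silent through methylation of histone H3 on lysine 9, and TASOR2 is its paralog. The extracellular matrix is the network of collagens, laminins and glycoproteins such as fibronectin that surrounds cells. Integrins, each a pair of an alpha and a beta subunit, anchor cells to that network, and secreted ADAMTS proteases trim it. K-562 cells grow in suspension and attach to fibronectin mainly through integrins.

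None of the 9 genes passed an adjusted p of 0.05 (0 of 9). The share of all tested genes that did was also small. It was 1 of 13992 genes (0.00715%) in the knockout, 0 of at least 13957 (0%) with FLAG-TASOR and 5 of 14001 (0.0357%) with FLAG-TASOR2. The genes are therefore described as listed, which means that they passed all 3 limits seen in the tables: an unadjusted p under 0.05, a log2 fold change beyond 1 in either direction, and a mean expression over 1 on the log2 scale, which is 2 CPM (read counts scaled to library size). By these limits 7 of the 9 genes were lower and 2 were higher than in the controls. The 2 higher genes could pass the expression minimum only as higher. Among all listed genes, 131 of 268 were lower in the knockout, 176 of 261 with FLAG-TASOR and 526 of 884 with FLAG-TASOR2. With so few genes, no lean to lower values is read from this. The 9 of 100 annotated genes that were listed stand beside 1221 listed genes in all, with at least 13957 tested per table. Each of the 9 was listed in 1 table, as were 1057 of all 1221 listed genes (86.6%), so this sets them apart from no others. The other 91 annotated genes were not listed and have no value here, and how many of them were tested is unknown.

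The targeted genes were checked first. In the authors' deposited tables TASOR stood at -1.08 (approximate SE 0.23) on the log2 scale in the knockout, and TASOR2 at 2.26 (0.27) with FLAG-TASOR2. From the fold change and the mean expression, the level of each group can be derived, which gave 39.0 CPM of TASOR in knockout cells, against 82.4 CPM in controls. TASOR2 came to 1070 CPM with FLAG-TASOR2, against 222.8 CPM in controls. The adjusted p in the authors' deposited tables was 1.00 for TASOR and 0.125 for TASOR2, and TASOR RNA remained in cells labelled knockout. RNA counts do not show the edited site or the protein; the labels' protocols say that both were checked, and those data were not analysed here. Neither gene was listed with FLAG-TASOR.

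**Figure D1:**
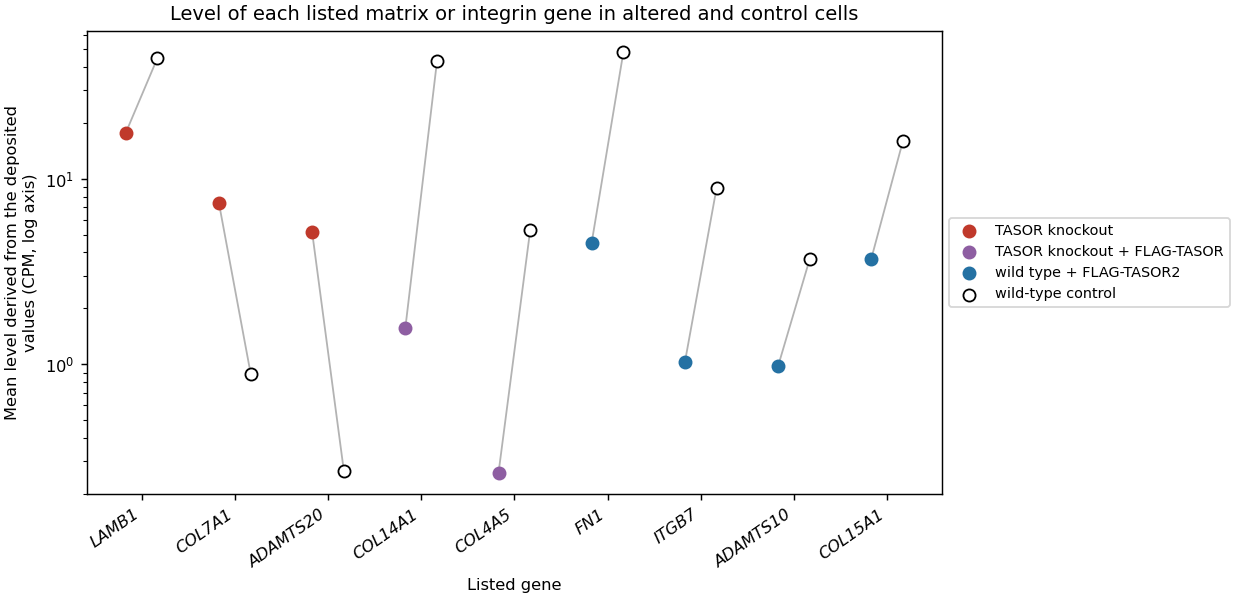
Mean level of the 9 listed genes in CPM, on a log axis, derived from the authors' mean expression and fold change for the altered cells (filled points) and the wild-type controls (open points). COL7A1 and ADAMTS20 lie higher in TASOR knockout cells, and the other 7 genes lie lower in the altered cells. The points have no error bars because no value per library was used.

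The first comparison set cells labelled TASOR knockout against the controls. A protease and a collagen were listed as higher and a laminin chain as lower. ADAMTS20, a secreted protease known from mouse studies for its part in pigment cell development, was derived at 5.13 CPM in knockout cells, against 0.27 CPM in controls. COL7A1, the collagen of the anchoring fibrils that fasten skin epithelium to the dermis, stood at 7.36 CPM in knockout cells, against 0.89 CPM in controls. LAMB1, the beta-1 chain of several laminin trimers of basement membranes, was at 17.7 CPM in knockout cells, against 44.9 CPM in controls. CPM is not corrected for gene length, so these levels compare groups and not genes. In bulk RNA, fewer cells with a transcript and less of it per cell cannot be told apart.

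In the authors' deposited table ADAMTS20 stood at a log2 fold change of 4.27 (approximate SE 0.72, 95% interval 2.47 to 6.08). The authors' deposited table gave it a p of 0.0015 and an adjusted p of 0.937, the smallest adjusted p of the 3 genes. Its control level lies far below 2 CPM, so its fold has a small denominator. COL7A1 followed at 3.05 on that scale (0.72, interval 1.23 to 4.87, p 0.0071, the authors' deposited table). LAMB1 was at -1.34 (0.37, interval -2.26 to -0.42, p 0.0129), and the authors' deposited table put the adjusted p of both LAMB1 and COL7A1 at 1.00. ADAMTS20 ranked 26 and COL7A1 63 among the 268 listed genes by size of change, while LAMB1 ranked 217. The low control levels of ADAMTS20 and COL7A1 let only large rises pass the expression minimum, so their ranks partly follow from the limits.

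The knockout table listed 268 of 13992 tested genes (1.92%), of which 3 were matrix genes. It placed 137 genes higher (0.979%) and 131 lower (0.936%), and 2 and 1 of them were matrix genes. The 2 higher genes, ADAMTS20 and COL7A1, had control levels under 2 CPM. They could therefore pass the expression minimum only as higher, so their direction was fixed by the limits. Their size was also bounded by them, because from such control levels only rises beyond the fold limit of 1 lift the mean over 2 CPM. The median log2 fold change was 3.05 over the 3 matrix genes and 1.01 over all 268 listed genes. Medians of listed genes mix high and low values, so sizes were also compared without sign. The median absolute log2 fold change was 3.05 for the matrix genes and 2.00 for all listed genes, and the median approximate SE was 0.72 and 0.58. The larger median of the matrix genes rests on ADAMTS20 and COL7A1, whose least size was set by the limits. With 3 genes this is a description only, and no larger change of matrix genes is read from it.

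The stretches before the starts of these 3 genes are shown because the genes differ in the CpG content of their promoters, a feature the choice by symbol did not use. The sequences are those of RefSeq on GRCh38.p14, 5′ to 3′ on the strand of the gene (minus for all 3), with each CG in capitals. They cover chr12:43552204-43552453 for ADAMTS20, chr3:48595330-48595579 for COL7A1 and chr7:108003256-108003411 for LAMB1. For LAMB1 the 94 bases nearest to the start lie in an annotated exon and are not shown. The RefSeq starts of ADAMTS20 and COL7A1 lie upstream of the 5′ ends that GENCODE 29 annotates, so their windows lie farther from those.
ADAMTS20: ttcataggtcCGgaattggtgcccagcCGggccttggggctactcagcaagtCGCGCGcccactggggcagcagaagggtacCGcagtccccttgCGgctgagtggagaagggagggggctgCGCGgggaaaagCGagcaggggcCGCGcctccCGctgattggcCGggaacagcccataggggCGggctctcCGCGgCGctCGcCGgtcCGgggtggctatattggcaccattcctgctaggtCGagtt
COL7A1: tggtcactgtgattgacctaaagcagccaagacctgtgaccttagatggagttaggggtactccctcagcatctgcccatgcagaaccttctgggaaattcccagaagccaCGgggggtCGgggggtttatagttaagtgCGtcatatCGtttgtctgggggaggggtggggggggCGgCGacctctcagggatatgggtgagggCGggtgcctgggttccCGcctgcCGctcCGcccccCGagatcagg
LAMB1: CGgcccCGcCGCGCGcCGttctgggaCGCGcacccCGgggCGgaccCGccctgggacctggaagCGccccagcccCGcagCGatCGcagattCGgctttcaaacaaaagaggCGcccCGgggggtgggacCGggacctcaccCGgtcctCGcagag

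The full window of 250 bases held 22 CG pairs in ADAMTS20, 11 in COL7A1 and 28 in LAMB1. Relative to the number that its base composition predicts, the CpG ratio was 0.777 for ADAMTS20, 0.493 for COL7A1 and 0.924 for LAMB1. The median over 27303 RefSeq windows was 0.556. COL7A1 thus lay below that median, and ADAMTS20 and LAMB1 lay above it, so the 2 genes listed as higher did not share this feature.

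The second comparison asked how knockout cells that carried FLAG-TASOR differed from the same controls. Both listed matrix genes were collagens, and both were lower. COL14A1, a collagen that binds to the surface of larger fibrils, was derived at 1.57 CPM in FLAG-TASOR cells, against 43.2 CPM in controls. COL4A5, a chain of the type IV collagen network of basement membranes whose mutations cause Alport syndrome, was at 0.26 CPM in FLAG-TASOR cells, against 5.27 CPM in controls. In the plot of derived levels they have the widest gaps of the 9 genes.

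The authors' deposited table gave COL14A1 a log2 fold change of -4.78, which is 27.6-fold lower. Its approximate SE was 1.54 and its 95% interval ran from -8.66 to -0.91, the widest of the 9 genes. The p in the authors' deposited table was 0.0242, with an adjusted value of 0.999. For COL4A5 the authors' deposited table gave -4.35 (1.17, interval -7.30 to -1.40, p 0.0122, adjusted p 0.999). So the 2 largest changes of the 9 genes were also the 2 least precise.

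Of at least 13957 tested genes, 261 were listed (1.87%), 2 of them matrix genes. The table placed 85 genes higher (0.609%) and 176 lower (1.26%), and the matrix genes made up 0 and 2 of these. The median log2 fold change was -4.57 over the 2 collagens and -1.36 over all 261 listed genes. The median approximate SE was 1.35 and 0.53. COL14A1 ranked 11 and COL4A5 ranked 16 of 261 by size of change.

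COL4A5 lies on chromosome X from 108439844 to 108697545 (GENCODE 29, GRCh38), head to head with COL4A6, which encodes another type IV chain. Only 346 bases separate the 2 annotated genes, and the stretch shown lies within them, at chrX:108439588-108439837 on the plus strand, with each CG in capitals.
COL4A5: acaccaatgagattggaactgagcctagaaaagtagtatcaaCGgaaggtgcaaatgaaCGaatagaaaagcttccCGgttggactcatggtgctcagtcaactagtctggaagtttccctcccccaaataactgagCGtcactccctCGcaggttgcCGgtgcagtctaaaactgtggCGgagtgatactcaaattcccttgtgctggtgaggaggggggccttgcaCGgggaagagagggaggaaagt
This window held 8 CG pairs, with a CpG ratio of 0.5 against the median of 0.556. COL4A6 was not listed in any table, and neither were COL4A3 and COL4A4, the other chains that assemble with COL4A5 (0 of 3 partners).

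The third comparison set wild-type cells with FLAG-TASOR2 against the controls. All 4 listed matrix genes were lower, and they covered a matrix glycoprotein, an integrin, a protease and a collagen. FN1, which encodes fibronectin, was derived at 4.53 CPM in FLAG-TASOR2 cells, against 48.1 CPM in controls. ITGB7, the integrin beta-7 subunit that pairs with alpha-4 or alpha-E on leukocytes, was at 1.02 CPM in FLAG-TASOR2 cells, against 8.89 CPM in controls. COL15A1, a collagen of the basement membrane zone, was at 3.69 CPM in FLAG-TASOR2 cells, against 16.0 CPM in controls. ADAMTS10, which acts on fibrillin microfibrils and is mutated in Weill-Marchesani syndrome, was at 0.97 CPM in FLAG-TASOR2 cells, against 3.68 CPM in controls.

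In the authors' deposited table FN1 stood at -3.41 on the log2 scale (approximate SE 0.82, 95% interval -5.42 to -1.40, adjusted p 0.215). That is 10.6-fold lower. ITGB7, at -3.12 (0.61, interval -4.60 to -1.64), held the smallest adjusted p of the 9 genes, 0.185, according to the authors' deposited table. COL15A1 was at -2.11 (0.45, interval -3.21 to -1.02, adjusted p 0.199, the authors' deposited table). ADAMTS10 had the weakest p of the 9, 0.0334, at -1.92 (0.70, interval -3.63 to -0.21, adjusted p 0.36, the authors' deposited table).

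**Figure D2:**
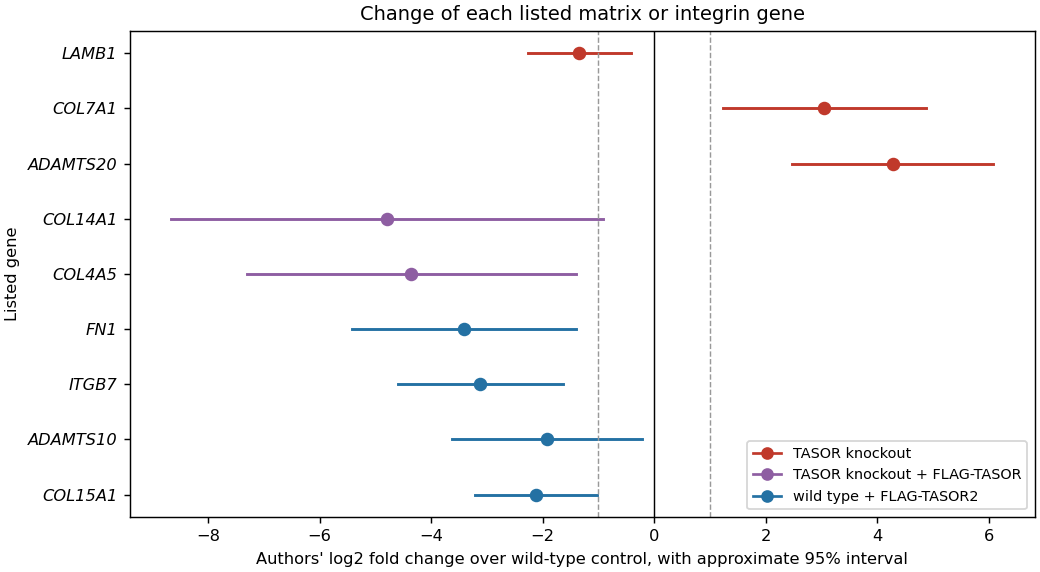
Authors' log2 fold change over wild-type controls for the 9 listed genes (points) with approximate 95% intervals (lines) from the F score and its degrees of freedom. The dashed lines mark the listing limit of 1 in either direction. The intervals of COL14A1 (-8.66 to -0.91) and COL4A5 (-7.30 to -1.40) are the widest.

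The FLAG-TASOR2 comparison listed 884 of 14001 tested genes (6.31%), 4 of them matrix genes. It placed 358 genes higher (2.56%) and 526 lower (3.76%), and 0 and 4 of them were matrix genes. The median log2 fold change was -2.62 over the 4 matrix genes and -1.20 over all 884 listed genes. Median absolute values were 2.62 and 1.83, and median approximate SEs were 0.65 and 0.54. Even so, FN1 ranked 128, ITGB7 151, COL15A1 350 and ADAMTS10 421 of 884 by size of change, so none was among the most changed genes of the table.

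**Figure D3:**
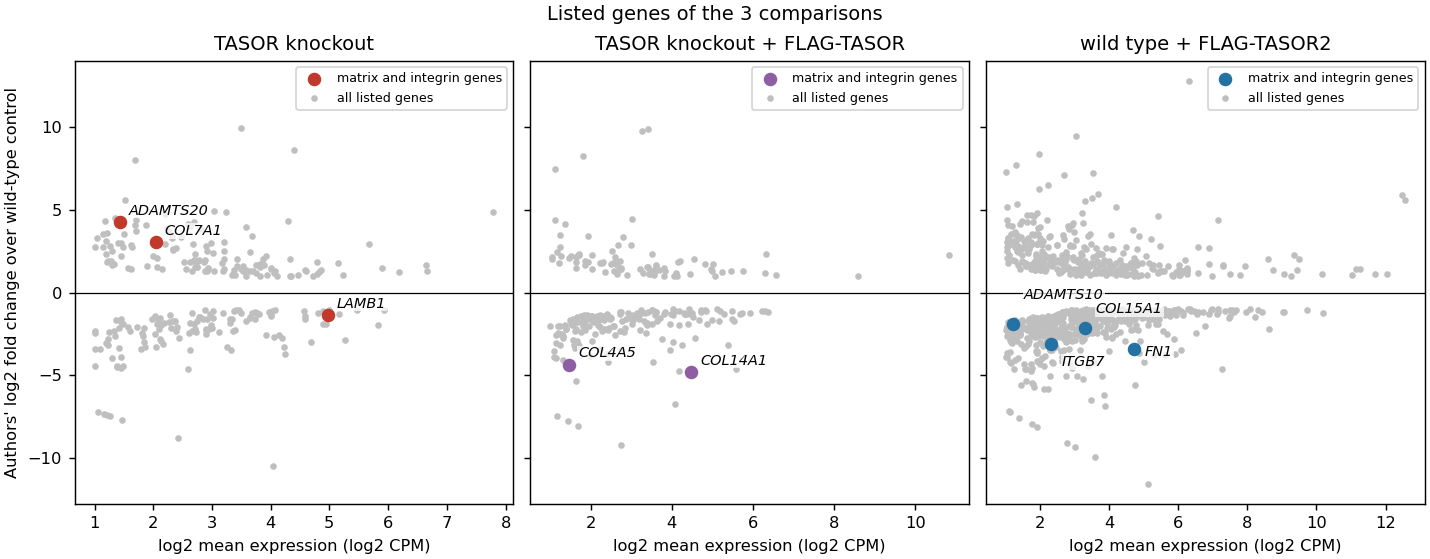
Authors' log2 fold change against log2 mean expression for the matrix and integrin genes (coloured, named) and for all listed genes (grey: 268, 261 and 884) of each comparison. The gap around 0 is the listing limit, and the left edge is the expression minimum. LAMB1 lies near the limit, and ADAMTS20, COL4A5 and ADAMTS10 lie near the expression minimum.

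The 5 fibronectin receptor subunits looked up did not include ITGB7, which was itself listed as lower with FLAG-TASOR2. ITGA5, ITGB1, ITGAV, ITGB3 and ITGA4 were absent from every table (0 of 5), as were ITGA4, ITGAE and MADCAM1, the partners and ligand of ITGB7 (0 of 3). The laminin chains looked up as partners of LAMB1 were also not listed (0 of 6 alpha and gamma genes), nor was COL18A1, the closest relative of COL15A1. With 1.92%, 1.87% and 6.31% of all tested genes listed, a count of 0 among so few genes says nothing particular about them. ITGAM, an integrin alpha subunit of myeloid cells that the choice by symbol leaves out, was listed as lower in each of the authors' deposited tables, at -2.44 (0.91) in the knockout, -2.39 (0.70) with FLAG-TASOR and -4.62 (0.78) with FLAG-TASOR2. The 3 comparisons share their controls, so this repeat is no independent evidence.

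The absence of a gene from a table can be read in part from its control level. For 6 of the 9 genes (LAMB1, COL14A1, COL4A5, FN1, ITGB7 and COL15A1) the controls alone keep the mean above 2 CPM. By these derived levels the expression minimum would not have kept them out of the other tables, and only the p or fold limits would. Control levels derived from 2 tables differed by up to 0.99 on the log2 scale. For COL4A5, with the lowest control level of the 6 at 5.27 CPM, the minimum can therefore not be set aside. ADAMTS20, COL7A1 and ADAMTS10 have control levels of 0.27, 0.89 and 3.68 CPM and could be missing through the minimum alone. Whether any gene differed between 2 altered groups was not tested, since a gene has a value in 1 table only.

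The promoters of the FLAG-TASOR2 genes covered a wide range of CpG content. The ratio was 0.138 for ITGB7, 0.839 for ADAMTS10, 0.878 for FN1 and 1.11 for COL15A1, which lay at percentiles 16.0, 74.0, 78.8 and 97.1 of all windows. Annotated exons covered all 250 bases of the COL15A1 window, 161 of FN1, 56 of ITGB7 and 20 of ADAMTS10. The COL15A1 value is therefore that of exon sequence. ITGB7 is shown as the gene with the fewest CG pairs, 2 in the window of 250 bases and 1 in the part outside exons, at chr12:53207308-53207501 on the minus strand.
ITGB7: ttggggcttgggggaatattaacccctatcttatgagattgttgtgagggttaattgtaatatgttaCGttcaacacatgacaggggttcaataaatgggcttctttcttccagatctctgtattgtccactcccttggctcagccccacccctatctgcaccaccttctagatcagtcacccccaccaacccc
The FN1 window held the cAMP response element TGACGTCA, starting 183 bases before the RefSeq start, which 1.76% of all windows hold on either strand. This palindrome was found in 1 of the 8 genes with a window, and COL14A1 is named only. The GC box GGGCGG was found on either strand in 6 of the 8 windows, as in 42.3% of all windows. Also on either strand, the CCAAT box was found in 3 of them (33.0% of all) and the TATA box sequence TATAAA in 2 (11.1% of all). Both TATAAA matches, in COL7A1 and ADAMTS10, lay on the strand opposite to the gene. The motif AGATAA, which GATA factors bind, was found in 0 (9.37% of all). Overlaps between motifs were allowed. A match describes letters in the window and not binding.

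**Figure D4:**
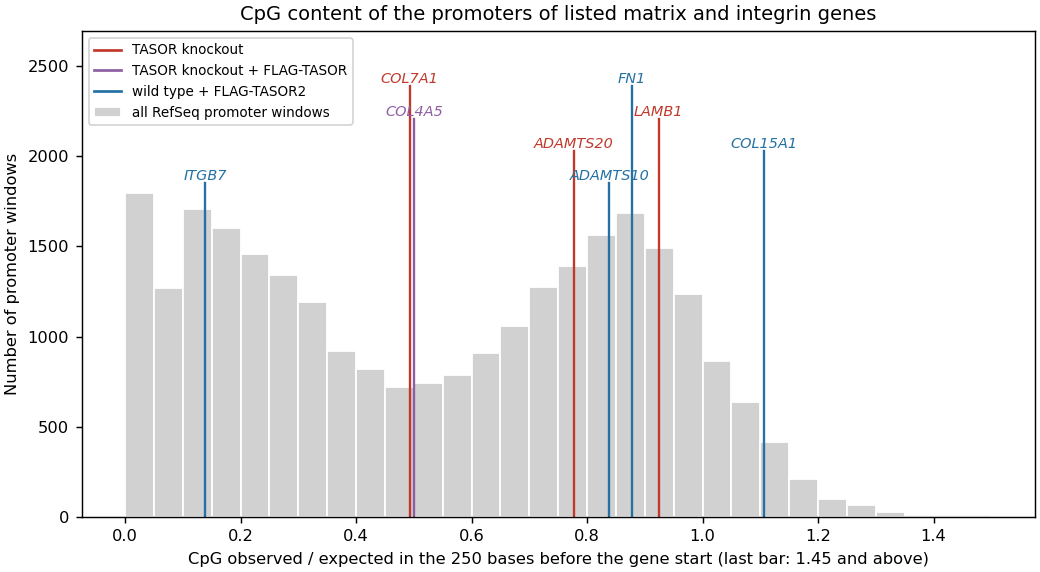
CpG observed over expected in the 250 bases before the RefSeq start, for 27303 promoter windows (grey bars, number of windows) and for the 8 listed genes with a window (vertical lines, coloured by comparison). ITGB7 (0.138) and COL15A1 (1.11), both from the FLAG-TASOR2 comparison, mark the extremes. All 250 bases of the COL15A1 window lie in annotated exons.

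The 9 genes share a structure of many exons. Their longest transcripts by exon number had 16 (ITGB7) to 118 (COL7A1) exons, and all 9 exceeded the median of their own table, which was 7, 9 or 8 exons. This is a feature of the families, since the 100 annotated genes had a median of 30 exons, against 8 for all protein-coding genes. In genomic span, 6 of the 9 exceeded the median of their table. They lie on 8 chromosomes. ITGB7 was lower beside RARG and AMHR2 within 1 Mb, ADAMTS10 beside MYO1F, and COL15A1 lay near HEMGN, which was listed in the opposite direction. ADAMTS20 had PRICKLE1 and NELL2 nearby, 1 in each direction. Around LAMB1, COL7A1, COL14A1, COL4A5 and FN1 no other listed gene of the same table lay within 1 Mb. LAMB1 and ITGB7 overlap the protein-coding genes DLD and ZNF740 on the opposite strand, and LAMB1, COL4A5, ADAMTS10 and COL15A1 overlap annotated noncoding genes there, and the sources used here do not state if reads were counted by strand, so reads of such pairs may not be told apart.

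Beyond these families, 8 lists of matrix and adhesion genes with 240 gene symbols in all were examined, and 12 of these genes were listed. The CCN matrix glycoproteins are entered under both old and new symbols, so the lists hold fewer genes than symbols. In the knockout 0 of them were higher and 1 was lower, with FLAG-TASOR 2 and 2, and with FLAG-TASOR2 4 and 6. These are 0.417%, 1.67% and 4.17% of the 240 symbols, each below the share of all tested genes that the table lists (1.92%, 1.87% and 6.31%). How many of the 240 were tested is unknown, so the shares are not compared further. Only THBS1 passed an adjusted p of 0.05. THBS1, thrombospondin-1, a matrix glycoprotein that megakaryocytes also make, rose with FLAG-TASOR2, by 3.21 on the log2 scale (0.24, adjusted p 0.0353, the authors' deposited table). It was derived at 67.1 CPM in FLAG-TASOR2 cells, against 7.25 CPM in controls. With FLAG-TASOR it was listed at 1.91 (0.69, adjusted p 0.999) in the authors' deposited table.

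Among other matrix glycoproteins, SPARC, a collagen-binding matricellular protein, was at -1.32 (0.28) on the log2 scale with FLAG-TASOR2 in the authors' deposited table. PLOD2, a lysyl hydroxylase that prepares collagen for cross-links, was the only 1 of 26 collagen-modifying genes listed, at 2.31 (0.36) with FLAG-TASOR2 in the authors' deposited table. Of 36 proteoglycans, SDC1 was at 1.54 (0.43) with FLAG-TASOR and PRG2 at -2.70 (0.43) with FLAG-TASOR2 in the authors' deposited tables. Of 41 metalloproteinase, ADAM, inhibitor and related genes, 1 was listed with FLAG-TASOR and 2 with FLAG-TASOR2, all as lower. They were PAPLN at -1.70 (0.63) with FLAG-TASOR, and ADAM19 at -2.95 (1.08) and ADAM22 at -1.73 (0.63) with FLAG-TASOR2, in the authors' deposited tables. Of all tested genes, 1.26% were listed as lower with FLAG-TASOR and 3.76% with FLAG-TASOR2. None of the 13 basement membrane partners, such as HSPG2 and NID1, and none of the 6 other integrin genes was listed (0 in each table). MRC2, an endocytic receptor for collagen, was the 1 listed gene of 19 other receptors, at 1.15 (0.32) with FLAG-TASOR2 in the authors' deposited table.

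Of the 35 integrin adaptors and focal adhesion genes, SRC, a kinase that acts downstream of integrins, was listed as lower in all 3 tables. Its log2 fold change was -2.51 (0.65) in the knockout, -1.73 (0.53) with FLAG-TASOR and -2.17 (0.66) with FLAG-TASOR2 in the authors' deposited tables, each against the same controls. With FLAG-TASOR2 the actin cross-linker FLNA was at -1.06 (0.24), and TNS1, which links integrins to actin, at 1.06 (0.27), in the authors' deposited table. None of these (0 of 3 genes) passed an adjusted p of 0.05, the smallest being 0.203 for FLNA, in the authors' deposited table.

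**Figure D5:**
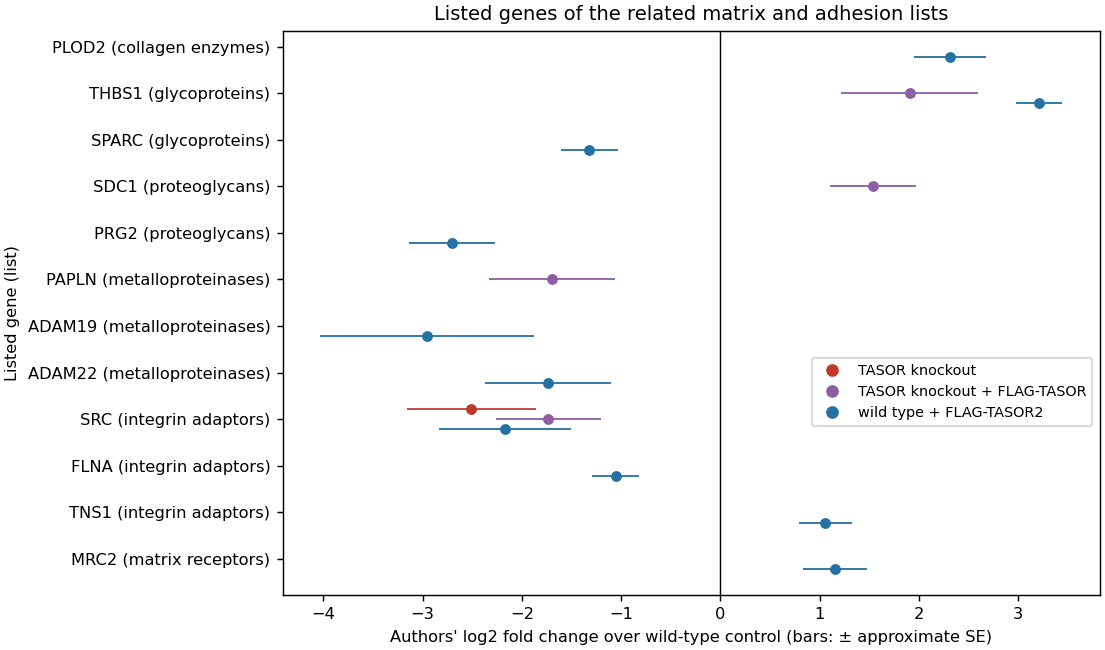
Authors' log2 fold change over wild-type controls, with approximate SE as bars, for the 12 listed genes of the related matrix and adhesion lists, coloured by comparison. THBS1 with FLAG-TASOR2 (3.21) is the only value with an adjusted p below 0.05, and SRC is the only gene with values from all 3 tables.

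Markers of blood lineages were listed beside the matrix genes in the FLAG-TASOR2 comparison. Of 22 erythroid genes, 5 were listed and all were higher, among them SLC4A1 at 2.62 (0.31), HBA2 at 2.04 (0.30) and HBA1 at 1.12 (0.20) in the authors' deposited table. HBA1 and HBA2 are near-identical copies whose reads may be split. HBA1 was derived at 1560 CPM in FLAG-TASOR2 cells, against 718.3 CPM in controls, so an erythroid globin was abundant in cells that the labels call lymphoblasts. Of 18 megakaryocyte genes, 3 were higher, namely THBS1, TUBB1 at 1.77 (0.25) and GP1BB at 1.59 (0.26) in the authors' deposited table. In the knockout 1 erythroid gene was listed, CA2 at -2.95 (0.55), and with FLAG-TASOR 2 were, CA2 at -1.53 (0.46) and HBE1 at 2.24 (0.57), in the authors' deposited tables. All tested genes were listed at 6.31% with FLAG-TASOR2 (2.56% as higher), at 1.87% with FLAG-TASOR and at 1.92% in the knockout, and how many markers were tested is unknown. Unlisted markers have no value, and the part of lineage markers in the matrix results was not tested.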

How the data were processed

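Total RNA depleted of ribosomal RNA was sequenced from 8 libraries, amplified for 13 PCR cycles per the labels' protocols. The submitters' processing notes list the tools edgeR, DESeq2, Salmon and STAR (version 2.7.8) together with genome build hg38, and do not say what each did. Per the file headers, the 3 deposited tables hold 5 values a gene: the log2 fold change, log2 mean expression, F score, p-value and adjusted p. The authors' column names match the output of edgeR's quasi-likelihood test. Nothing was refitted, since the tables hold no value per library, and no interval or floor that needs depth is given.

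The numbers of genes tested, 13992 and 14001, follow from dividing the adjusted by the raw p of the gene with the smallest p. For FLAG-TASOR, 13957 is the largest row number in the table and a minimum. The approximate SE is the size of the log2 change over the root of F. Its 95% interval uses the degrees of freedom that turn F into the deposited p, which were 5.36 for the knockout, 5.34 for FLAG-TASOR and 6.01 for FLAG-TASOR2. The interval of any gene listed at an unadjusted p under 0.05 therefore leaves out 0 by construction and adds no support to that p. Sizes of change in genes chosen by p and fold limits may also be too large. Derived CPM levels take the mean expression as the mean of 2 equal groups. Control levels derived from 2 tables for the same gene differed by a median absolute log2 of 0.08 (58 genes, knockout and FLAG-TASOR), 0.13 (99 genes, knockout and FLAG-TASOR2) and 0.13 (59 genes, FLAG-TASOR and FLAG-TASOR2), and by up to 0.99. The derivations of SE, degrees of freedom and levels were also run on simulated rows made with the same formulas, which checks the arithmetic only. That run cannot show whether the formulas hold for the deposited values.

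Genes were matched to GENCODE 29 (GRCh38, the assembly of hg38) by Ensembl identifier, and promoters to RefSeq (GRCh38.p14) by symbol, for 8 of 9 genes. Every listed member is named, with up to 3 listed genes per list and table by adjusted p. The members and lists were chosen with earlier results of these data known. Python 3.11.15 and SciPy 1.17.1 were used. Some genes are not reported here.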

Additional observations from a re-analysis of the deposited data

How the results depend on the processing

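With stricter limits on the deposited values, the counts of listed matrix genes changed as follows. At an absolute log2 fold change above 2, the knockout had 0 lower genes in place of 1. At an unadjusted p below 0.01 there were 0 lower genes in the knockout in place of 1 and 0 with FLAG-TASOR in place of 2. At a log2 mean expression above 2 there was 1 higher gene in the knockout in place of 2 and 1 lower gene with FLAG-TASOR in place of 2. With FLAG-TASOR2, each of these stricter limits left 3 lower genes in place of 4, because ADAMTS10 failed every one. That fall lies within the 1.5 times used below to call a count kept. At an adjusted p below 0.25, 3 matrix genes were called with FLAG-TASOR2 in place of 0 (FN1, ITGB7 and COL15A1), where 426 listed genes of that table pass. The other 36 of 42 alternative values kept the count to within 1.5 times or the SE to within 0.05 times its value. They include leaving out ADAMTSL genes and adding integrins named by letters, which could change no count because none of these genes was listed. They also include stricter limits on the counts of 0 higher genes with FLAG-TASOR and FLAG-TASOR2, which could not fall. The alternative SE uses degrees of freedom solved from the same F and p, so it could not differ either. Most of the 36 kept values were thus fixed in advance, and 36 of 42 is no measure of how stable the counts are. No direction reversed (0 of 42), and none could, because these settings only select among the same fold changes. No paired analysis was possible because the tables hold no value per library. For the same reason the planned runs with each replicate left out were not run. In 6 of the 9 genes the control or the altered level was under 2 CPM, so that one side of the fold is small.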

Other observations

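Marker genes of cell types outside the blood lineages were listed in small numbers, and none passed an adjusted p of 0.05 (0 genes; all had an unadjusted p below 0.05 in the authors' deposited tables). With FLAG-TASOR2, 3 of 16 mesenchymal genes were listed. TWIST1, a transcription factor of mesenchyme, was at 4.20 (approximate SE 0.99), derived at 14.7 CPM in FLAG-TASOR2 cells, against 0.80 CPM in controls, from the authors' deposited table. The contractile protein gene CNN1 was at -3.11 (0.73) and the intermediate filament gene VIM at -1.17 (0.35) in the authors' deposited table. KRT19, an epithelial keratin, was the 1 listed gene of 10 epithelial markers, at -3.75 (0.60) in the authors' deposited table and derived at 6.74 CPM in FLAG-TASOR2 cells, against 91.0 CPM in controls. With FLAG-TASOR, TIE1, an endothelial receptor kinase, was the 1 listed gene of 11 endothelial markers, at 3.47 (0.80) in the authors' deposited table. For comparison, 6.31% of all tested genes were listed with FLAG-TASOR2 and 1.87% with FLAG-TASOR, and how many markers were tested is unknown. In the knockout no marker of these 3 lists was listed (0 genes).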
